A study of Mus musculus with 4 samples.

Results

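The genes described here are 9 members of the monocyte recruitment and colony-stimulating system. They are the chemokine ligands Ccl2, Ccl7, Ccl8 and Ccl12, the receptor Ccr2, the growth factors Csf1, Csf2 and Il34, and the receptor Csf1r. They were chosen by symbol from the 30406 genes that the annotations of 4 single-cell libraries share, and all 9 were found, each with the same identifier in every library. Their UMIs (unique molecular identifiers, which count captured transcripts) were followed across cell classes to show which cells held the ligands and which held the receptors.

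Ccl2 and Ccl7 draw monocytes out of the bone marrow and the blood through the receptor Ccr2, and Ccl2 is the better known. Csf1 and Il34 are separate ligands of the receptor tyrosine kinase Csf1r, on which most tissue macrophages depend for survival, while Csf2 acts through another receptor on granulocytes, macrophages and dendritic cells. In the peritoneal cavity, resident macrophages coexist with macrophages derived from recruited monocytes, and tumors of the omentum hold both.

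Droplet 3' libraries were made from omental tumors grown from 3 syngeneic mouse cancer cell lines, named KPCA.A, KPCA.B and KPCA.C, and from KPCA ascites, the fluid that gathers in the peritoneal cavity. All mice were C57BL6J, aged 8 weeks for the tumors and 9 weeks for the ascites, and cells of 4 tumors were pooled for each tumor library. The labels call the cell type Fallopian tube epithelial cells, do not spell out the alleles that the lines carry, and leave the ascites library's line unnamed. Each tumor library is thus 1 line, and the host's own immune and stromal cells were sequenced together with the tumor cells.

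There was 1 library per group, so no difference had a replicate check and no test was run. Intervals are 95% intervals that cover counting error only: exact Poisson for levels, exact conditional for ratios of levels, Clopper-Pearson for shares. Levels are CPM, a class's summed UMIs scaled to a total of 1000000 over the shared genes. Where values follow each other without names, they stand in the order KPCA.A, KPCA.B, KPCA.C and, where given, ascites. A gene counted as past 2-fold where its CPM ratio exceeded 2 in either direction, among genes with at least 50 UMIs in both sums together. After filtering, 2643, 2579, 3094 and 2915 cells were used in that order, from libraries of 58591493, 40054369, 95130645 and 7420674 UMIs, and the cells' median depths were 7868, 7923, 14571.5 and 2075 UMIs. Library pairs shared between 0 and 19 barcodes. Clusters were named from marker genes, with no member among the genes used for clustering, and "-like" marks a name that rests on markers alone.

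The tumor epithelial-like class numbered 771, 294 and 990 cells in the 3 tumors and held all 10 of its markers in each tumor, but the ascites library had 1 such cell, against the cell type on its label. Monocyte and macrophage-like cells numbered 667, 561, 1019 and 1996, which was 25.2%, 21.8%, 32.9% and 68.5% of the cells used. Cells were digested and filtered before they were counted, so these are shares of the cells recovered. The filter fell unequally: 53.1%, 22.5%, 24.3% and 5.42% of the libraries' barcodes exceeded its limit on UMIs from mitochondrial genes, so KPCA.A lost most. The clusters that filled this class differed between libraries: a cluster led by Mmp12 and Mmp13 held 331 cells of KPCA.A, one led by Retnla, Lyve1 and Rnase2a held 271 of KPCA.B, and one led by Osm and Il1b held 293 of KPCA.C. In ascites, 748 further cells formed cluster 4, with Pf4, Ppbp, Cxcl3, S100a8, Il1r2 and Cd163 among its leading genes. Cluster 4 had no class name and is described on its own. The ascites library also differed from the tumors in depth, annotation release and Cell Ranger version, and these cannot be told apart from the tissue.

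The 4 chemokine genes lie together on chromosome 11 of GRCm38 on the plus strand: Ccl2 at chr11:82035571-82037453, Ccl7 at chr11:82045712-82047525, Ccl12 at chr11:82101845-82103400 and Ccl8 at chr11:82115185-82116799. Csf2 lies on the same chromosome, apart from them, at chr11:54247271-54249667 on the minus strand. Ccr2 is at chr9:124101950-124113557 on the plus strand, Csf1 at chr3:107741048-107760469 and Il34 at chr8:110741829-110805924, both on the minus strand. All 9 members, Csf1r included, are protein-coding genes, and each interval spans the whole gene with its exons, introns and UTRs.

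Promoter sequence from RefSeq (GRCm38.p6, 250 bases before to 50 after the annotated start) was matched for 5 of the 9 members: Ccl8, Ccl12, Ccr2, Csf1 and Csf2. Ccl2, Ccl7, Il34 and Csf1r had no entry. Shown here are the promoters of Ccl8 and Ccl12, whose transcripts in the tumors lay mostly in macrophage-like cells, and of Csf1, whose transcripts lay mostly outside them. The plus-strand windows are chr11:82114935-82115234 for Ccl8 and chr11:82101595-82101894 for Ccl12, and the minus-strand window of Csf1 is chr3:107760420-107760719. Each is written 5′ to 3′ along its gene, and capitals mark matches to one of 4 motifs searched on both strands.
Ccl8: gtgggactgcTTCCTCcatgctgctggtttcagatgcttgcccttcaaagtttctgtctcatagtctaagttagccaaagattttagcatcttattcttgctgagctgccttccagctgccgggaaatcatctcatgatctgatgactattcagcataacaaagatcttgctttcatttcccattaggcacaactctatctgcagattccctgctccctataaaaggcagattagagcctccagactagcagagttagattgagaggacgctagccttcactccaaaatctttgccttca
Ccl12: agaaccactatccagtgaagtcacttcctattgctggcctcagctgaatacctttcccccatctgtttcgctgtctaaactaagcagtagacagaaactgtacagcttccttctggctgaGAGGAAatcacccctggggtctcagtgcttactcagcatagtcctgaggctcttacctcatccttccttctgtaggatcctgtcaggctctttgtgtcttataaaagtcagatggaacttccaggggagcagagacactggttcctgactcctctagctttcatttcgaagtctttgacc
Csf1: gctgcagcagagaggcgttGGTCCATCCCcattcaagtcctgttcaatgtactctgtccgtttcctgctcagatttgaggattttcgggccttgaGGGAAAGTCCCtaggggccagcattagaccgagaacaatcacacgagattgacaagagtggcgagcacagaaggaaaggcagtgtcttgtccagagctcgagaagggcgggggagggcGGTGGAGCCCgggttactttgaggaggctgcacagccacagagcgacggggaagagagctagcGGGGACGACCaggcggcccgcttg
The Ccl8 and Ccl12 windows each held 1 match to GAGGAA, the letters searched for the myeloid factor PU.1, on the minus strand in Ccl8 (capitals TTCCTC) and on the plus strand in Ccl12. That motif was present in 28.3% of 32851 promoters of the same length. The Csf1 window held 5 matches to the kappaB motif (GGG and CC with 5 letters of any kind between them), 2 of which overlap on opposite strands, and 50.8% of promoters held at least 1. No window of the 3 held the AP-1 letters TGANTCA (7.81% of promoters) or the STAT letters TTCNNNGAA (8.30%). The Csf2 window held 1 kappaB match and the Ccr2 window no match to any of the 4. A match describes the letters only.

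**Figure D1:**
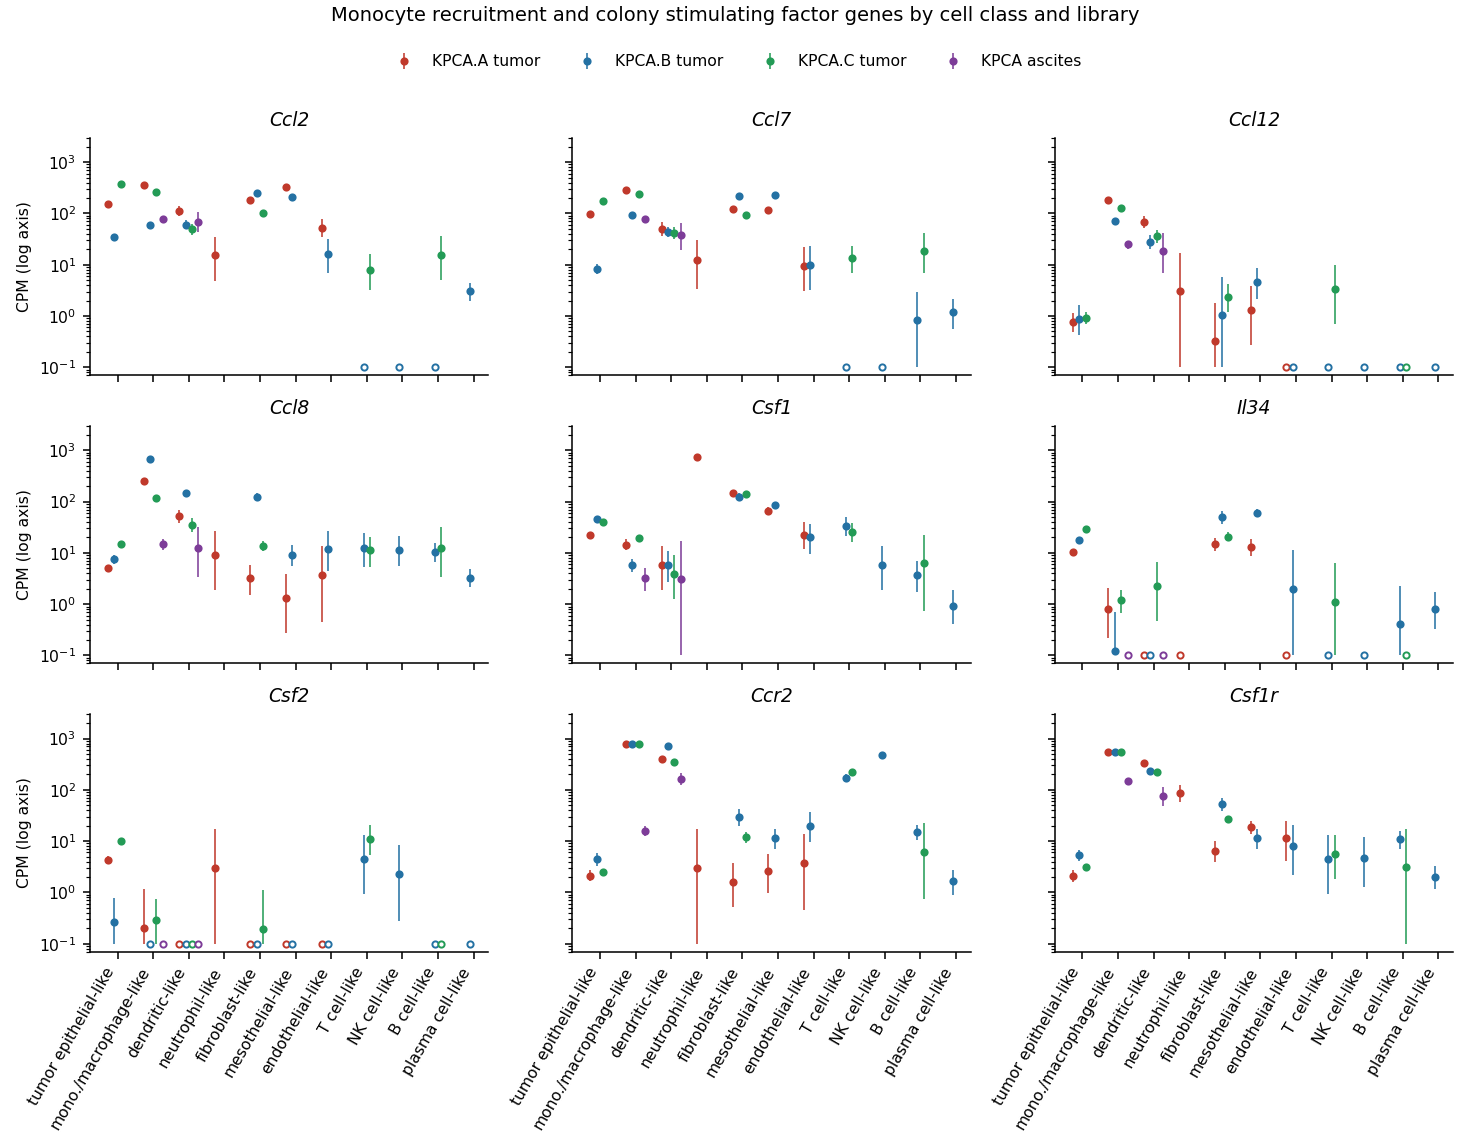
Level of each of the 9 genes by cell class and library, in CPM of the class's summed UMIs on a log axis, with 95% counting intervals, for classes of at least 50 cells (open circles at the foot of an axis stand for 0 UMIs). Ccr2 and Csf1r are high in the monocyte and macrophage-like class of the 3 tumors, and Csf1 is high in neutrophil-like cells of KPCA.A (753 CPM) and in fibroblast-like cells.

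Ccl2, the principal ligand of Ccr2, was held by tumor epithelial-like, macrophage-like and stromal cells alike, and among the tumors it was lowest in KPCA.B in both of the first 2. In tumor epithelial-like cells it stood at 156 CPM in KPCA.A (151 to 160), 34.5 in KPCA.B (31.1 to 38.1) and 374 in KPCA.C (370 to 379). KPCA.C was highest and KPCA.B lowest, and these intervals, which cover counting error only, did not overlap. Fibroblast markers in the same cells (8 of 8 above 0 in each tumor) summed to 486, 227 and 1241 CPM, the same order, and their part was not tested. KPCA.A exceeded KPCA.B 4.51-fold (4.07 to 5.02), and KPCA.C exceeded KPCA.A 2.41-fold (2.33 to 2.48) and KPCA.B 10.9-fold. Under the stricter cell filter, the log2 ratio of Ccl2 between KPCA.A and KPCA.B fell from 2.17 to 0.82 and that between KPCA.A and KPCA.C became -2.78. In monocyte and macrophage-like cells Ccl2 stood at 351 CPM in KPCA.A (335 to 368), 59.8 in KPCA.B (54.6 to 65.4), 257 in KPCA.C (248 to 265) and 76.7 in ascites (69.2 to 84.7). Here KPCA.A was highest, and KPCA.B was again lowest of the tumors, 5.87-fold (5.31 to 6.51) under KPCA.A and 4.30-fold under KPCA.C. The order of KPCA.A and KPCA.C turned in the clusters that both fill, where the log2 ratio of Ccl2 was -0.19.

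Which class had the higher Ccl2 level differed by line. Macrophage-like cells exceeded tumor epithelial-like cells 2.26-fold in KPCA.A (2.13 to 2.39) and 1.73-fold in KPCA.B (1.51 to 1.99), while in KPCA.C the tumor epithelial-like cells exceeded the macrophage-like cells 1.46-fold (1.41 to 1.51). The stromal classes did not follow the low level of KPCA.B. Fibroblast-like cells, which build the matrix, held Ccl2 at 185, 249 and 103 CPM, from 153, 51 and 121 cells. Mesothelial-like cells, the lining of the peritoneum, held it at 322 and 206 CPM in KPCA.A and KPCA.B, from 78 and 70 cells, and at 198 in the 48 cells of KPCA.C.

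Tumor epithelial-like cells held 58.3% of all Ccl2 UMIs of KPCA.A and 82.7% of those of KPCA.C, but 23.1% of those of KPCA.B. In KPCA.B the source was spread more evenly, with 28.7% of its 1685 Ccl2 UMIs in monocyte and macrophage-like cells, 23.9% in mesothelial-like and 14.2% in fibroblast-like cells. In ascites, 88.9% of the 4009 Ccl2 UMIs were in cluster 4. These shares move with the number and depth of the cells sequenced from each class: the Ccl2 share of tumor epithelial-like cells was 6.26% in KPCA.A under the stricter cell filter and 22.1% after thinning, and in KPCA.C it was 47.1% at Leiden resolution 2, 47.9% with libraries clustered alone and 47.3% after thinning.

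**Figure D2:**
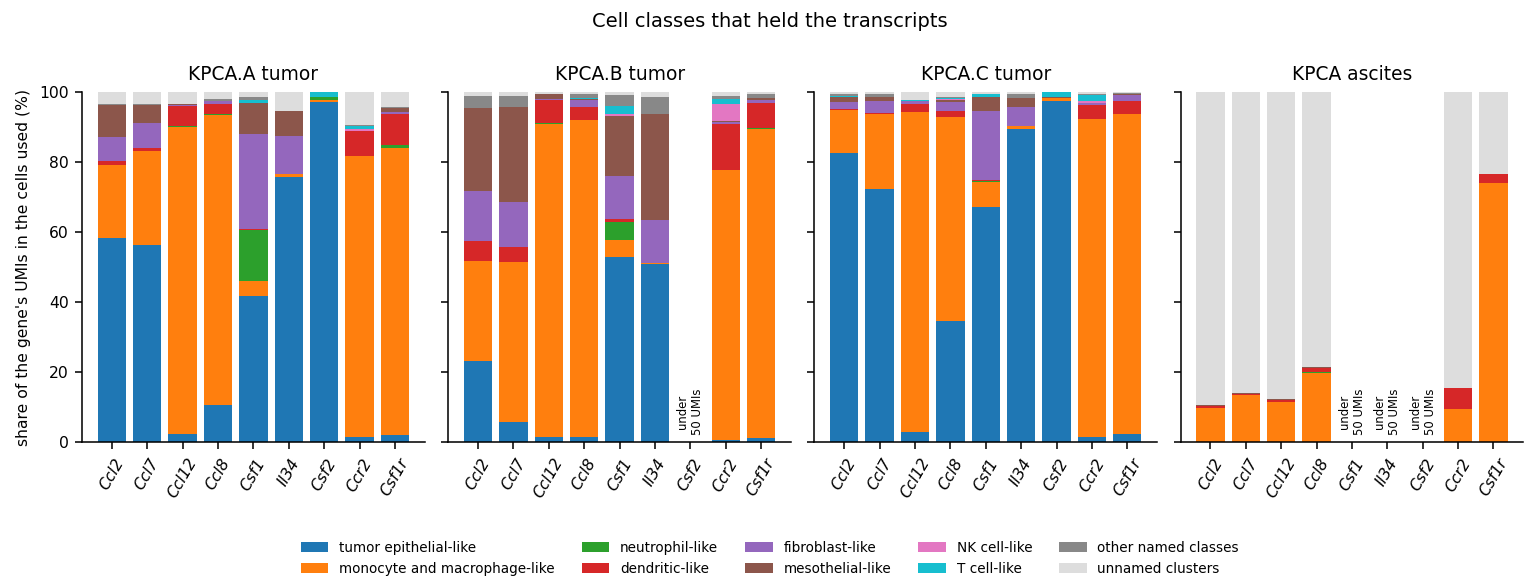
Share of each gene's UMIs that came from each cell class, in percent of the library's UMIs of that gene, by library (1 each). Tumor epithelial-like cells held 82.7% of Ccl2 UMIs in KPCA.C and 23.1% in KPCA.B, and cells without a class name held 89.4% in ascites.

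With every cell thinned to 1000 UMIs, at least 1 Ccl2 UMI was found in 10.7%, 2.79% and 19.7% of the tumors' tumor epithelial-like cells. Without thinning these shares were 52.7%, 25.9% and 77.5%, at median depths of 37186, 32946 and 59676.5 UMIs. B cell-like cells, which should lack Ccl2, gave the background: 0 of 576 in KPCA.B at a median of 3231 UMIs, which allows a share of up to 0.521%, and 4.35% of 69 thinned cells in KPCA.C at 3871 UMIs. In monocyte and macrophage-like cells the thinned shares were 16.5%, 3.96%, 18.8% and 5.26%. Ccl2 was concentrated in few cells: the tenth of cells with most held 69.0%, 81.0% and 63.8% of the tumor epithelial-like UMIs and 72.6%, 82.8%, 60.3% and 93.0% of the macrophage-like UMIs.

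Ccl7, the neighbouring gene of Ccl2 and also a Ccr2 ligand, had the same order of lines. In tumor epithelial-like cells it stood at 96.4 CPM in KPCA.A, 8.31 in KPCA.B (6.71 to 10.2) and 176 in KPCA.C (173 to 179). KPCA.A exceeded KPCA.B 11.6-fold (9.45 to 14.4) and KPCA.C exceeded KPCA.B 21.2-fold (17.3 to 26.3), both ratios being wider than those of Ccl2. In cluster 2, the tumor cluster led by H19, Miat and Rmst, KPCA.A stood above KPCA.C for Ccl7, at a log2 ratio of 0.25. In macrophage-like cells it stood at 288, 91.1, 240.1 and 77.1 CPM, with no overlap among the 3 tumors' intervals. In the clusters that KPCA.A and KPCA.C both fill, Ccl7 was lower in KPCA.A, at a log2 ratio of -0.61. Fibroblast-like cells held 124, 217 and 95.2 CPM, so that there KPCA.B was highest.

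The ratio of Ccl7 to Ccl2 UMIs was lower in tumor epithelial-like than in macrophage-like cells of every tumor: 0.620 against 0.821 in KPCA.A, 0.241 against 1.52 in KPCA.B and 0.470 against 0.935 in KPCA.C. Ccl7 and Ccl2 tended to be found in the same cells. At 1000 UMIs per cell, 31.7% of tumor epithelial-like cells of KPCA.A with Ccl2 also had Ccl7, against 5.70% of those without. In KPCA.C the shares were 30.7% and 8.31%. In macrophage-like cells they were 41.3% and 10.7% in KPCA.A and 32.5% and 10.7% in KPCA.C.

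Ccl8 and Ccl12, the remaining ligands, had their highest class levels in the tumors in monocyte and macrophage-like cells. Ccl8 stood at 252 CPM in monocyte and macrophage-like cells of KPCA.A (238 to 266), 679 in KPCA.B (662 to 698), 118 in KPCA.C (112 to 124) and 14.7 in ascites (11.5 to 18.5). This order is the reverse of that of Ccl2 among the tumors for KPCA.B, where Ccl8 was highest, 2.70-fold over KPCA.A (2.54 to 2.87) and 5.77-fold over KPCA.C (5.46 to 6.11). In KPCA.A, Ccl8 exceeded that of KPCA.C 2.14-fold (1.98 to 2.31), a ratio that fell under 2-fold in 7 of the alternative settings. There were 11.4 Ccl8 UMIs per Ccl2 UMI in this class of KPCA.B, against 0.717 in KPCA.A and 0.458 in KPCA.C. Of all Ccl8 UMIs, 82.9%, 90.5% and 58.3% were in this class in the 3 tumors, and in KPCA.C another 34.6% were in tumor epithelial-like cells. Those cells held Ccl8 at 5.03, 7.51 and 15.1 CPM. In KPCA.C this was 0.128 of the macrophage-like level, whereas Ccl12, Ccr2 and Csf1r reached 0.00713, 0.00318 and 0.00581 of theirs, and it was highest in the Igfbp3 and Grem1 cluster, at 23.7 CPM (22.1 to 25.4) against 3.31 in cluster 2. In KPCA.A and KPCA.B the Ccl8 level was 0.0200 and 0.0111 of the macrophage-like one.

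Ccl12 stood at 181 CPM in monocyte and macrophage-like cells of KPCA.A (170 to 194), 70.7 in KPCA.B, 130.0 in KPCA.C (124 to 136) and 24.8 in ascites (20.7 to 29.6). Its order was that of Ccl2 in the same class, with KPCA.B 2.57-fold under KPCA.A and 1.84-fold under KPCA.C. KPCA.A fell under KPCA.C for Ccl12 in the clusters that both fill and after thinning, at a log2 ratio of -0.14 in each. Between 87.7% and 91.2% of each tumor's Ccl12 UMIs were in this class. Dendritic-like cells, which present antigen, held 69.2, 27.7 and 36.0 CPM, and tumor epithelial-like cells held under 1 CPM in each line.

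Within the macrophage-like class, ligand levels differed among clusters, and the same cluster could be high in several ligands. The cluster led by Cd163, Mrc1 and F13a1, genes of tissue macrophages, held the highest Ccl2 and Ccl7 levels among the named clusters of those tumors: 939 CPM of Ccl2 in 51 cells of KPCA.A (847 to 1039) and 511 in 249 cells of KPCA.C (482 to 540), with Ccl7 at 1128 and 744 CPM. Ccl8 in this cluster stood at 1009 and 342 CPM, and there were 0.335 and 0.624 Ccl12 UMIs per Ccl2 UMI. In KPCA.B, 85.0% of all Ccl8 UMIs lay in the 271 cells of the cluster led by Retnla, Lyve1 and Rnase2a, where Ccl8 stood at 1268 CPM (1234 to 1304) and Ccl2 at 65.2. The cluster led by Mmp12 and Mmp13 held Ccl2 at 193 CPM in KPCA.A and 89.4 in KPCA.C, and Ccl8 at 165 and 104.

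Ccl8 was lower in some of the other clusters. The cluster led by Osm and Il1b, with 293 cells of KPCA.C, had Ccl8 at 7.93 CPM beside Ccl2 at 263 and Ccl12 at 57.6. The cluster led by Clec4a1, Ms4a4c and Lst1, which carried monocyte markers, had Ccl8 at 5.44 CPM in KPCA.B and no Ccl8 UMI in the 50 cells of KPCA.C. In this cluster Ccl2 still differed by line, at 52.6 CPM in 120 cells of KPCA.B and 458 in KPCA.C, 8.70-fold apart. The cluster led by Cxcl9, Rsad2 and Cxcl10, genes that interferon induces, held Ccl12 at 329 CPM in KPCA.A and 199 in KPCA.C, with Ccl8 at 322 CPM in KPCA.A. The cluster led by Alox15 and Ednrb, filled by KPCA.B and KPCA.C, was low in every ligand, with Ccl2 at 2.47 CPM in 70 cells and 58.8 in 85 cells.

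**Figure D3:**
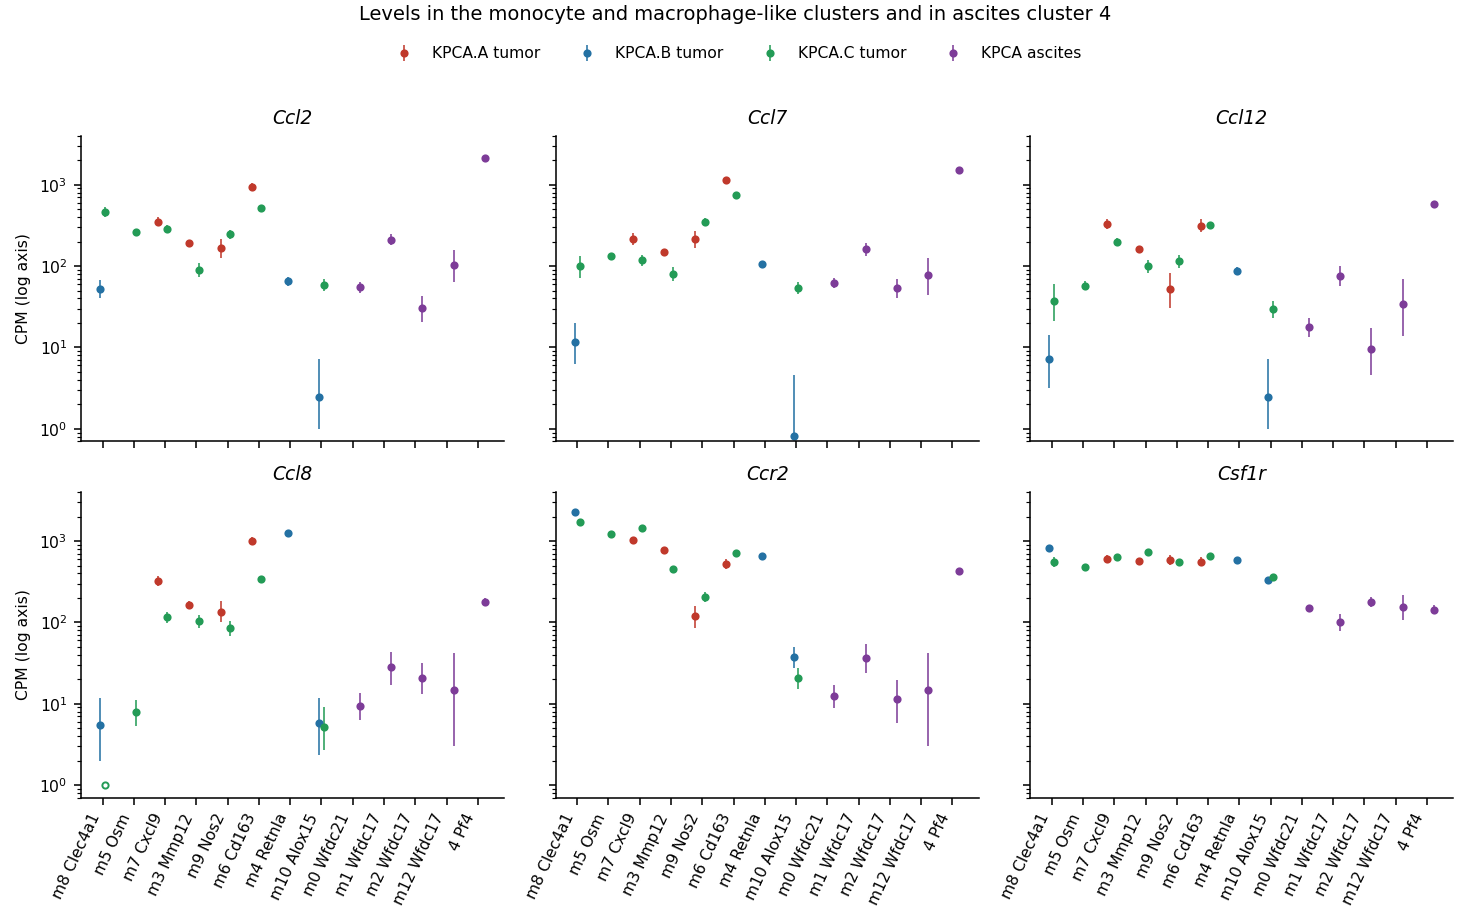
Levels of the member genes in each monocyte and macrophage-like cluster and in cluster 4, in CPM of the cluster's summed UMIs in 1 library, on a log axis with 95% counting intervals, for clusters of at least 50 cells in that library (named by number and 1 leading gene, an open circle stands for 0 UMIs). Ccl8 peaks in the cluster led by Retnla and Lyve1 in KPCA.B (1268 CPM), Ccr2 in the cluster led by Clec4a1 and Ms4a4c (2250 CPM in KPCA.B), and Ccl2 in cluster 4 of ascites (2157 CPM).

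Ccr2, the receptor of Ccl2 and Ccl7 and a mark of monocytes and their recent descendants, was alike in the macrophage-like class of all 3 tumors. The levels of these ligands were not. Ccr2 stood at 790 CPM in KPCA.A (765 to 815), 782 in KPCA.B (763 to 802) and 778 in KPCA.C (764 to 793), and these intervals overlapped. The ratio of KPCA.A to KPCA.B was 1.01 (0.970 to 1.05). In ascites the class held 15.7 CPM (12.4 to 19.6), and KPCA.A exceeded it 50.3-fold (40.3 to 63.7). This ratio leaves out cluster 4, which held 711 of the 842 Ccr2 UMIs of ascites. Over the settings run, the log2 ratio of ascites to KPCA.A ranged from -5.95 to -2.74. At 1000 UMIs per cell, 44.2%, 41.5% and 46.5% of the macrophage-like cells of the tumors had a Ccr2 UMI, and 1.35% of those of ascites. Tumor epithelial-like cells, which should lack it, gave 0.261%, 0.697% and 0.205% at the same thinned depth.

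The even class level covered large differences among clusters. Ccr2 stood at 2250 CPM in the monocyte-marker cluster of KPCA.B and at 1695 in that of KPCA.C, where 85.0% and 74.0% of thinned cells had a UMI. It stood at 1233 CPM in the Osm and Il1b cluster, which held 41.6% of all Ccr2 UMIs of KPCA.C, and at 649 in the Retnla and Lyve1 cluster of KPCA.B. It was lowest in the cluster led by Alox15 and Ednrb, at 37.9 CPM in KPCA.B and 20.7 in KPCA.C. Outside the class, dendritic-like cells held 396, 708 and 353 CPM. NK cell-like cells of KPCA.B held 481 CPM, and T cell-like cells held 169 in KPCA.B and 225 in KPCA.C.

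Csf1r, the receptor of Csf1 and Il34 that marks the whole macrophage lineage, was likewise even across the tumors, at 558 CPM in KPCA.A (537 to 579), 554 in KPCA.B (538 to 570) and 542 in KPCA.C (530 to 555). These intervals also overlapped. In ascites the class held 149 CPM (138 to 160), 3.74-fold under KPCA.A, and 14.3% of thinned cells had a UMI, against 41.6%, 44.1% and 39.5% in the tumors. Unlike Ccr2, Csf1r stayed present in the cluster led by Alox15 and Ednrb, at 330.1 CPM in KPCA.B and 361 in KPCA.C. There were 0.115 and 0.0575 Ccr2 UMIs per Csf1r UMI in that cluster, against 2.74 and 3.06 in the monocyte-marker cluster and 1.42, 1.41 and 1.44 over the class in the 3 tumors. Of all Csf1r UMIs, 82.1%, 88.4%, 91.3% and 74.1% were in the macrophage-like class.

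Csf1, the growth factor that keeps macrophages alive, was highest in classes other than macrophages. By level it was highest in neutrophil-like cells of KPCA.A, at 753 CPM (662 to 852) over 255 cells of a median of 1262 UMIs, and 31.2% of those that could be thinned had a UMI. The 40 neutrophil-like cells of KPCA.B held 621 CPM (458 to 823). A set of 9 genes that rise during tissue digestion, among them Fos, Egr1 and Hspa1a, was also highest in these cells, at a summed 11364 CPM in KPCA.A against 3254 in macrophage-like cells, and its part in the Csf1 level was not tested.

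Fibroblast-like cells held Csf1 at 147 CPM in KPCA.A (134 to 161), 122 in KPCA.B (101 to 146) and 144 in KPCA.C (134 to 155), with overlapping intervals. Tumor epithelial-like cells held less, 22.8 CPM in KPCA.A (21.2 to 24.6), 44.9 in KPCA.B (41.1 to 49.0) and 39.4 in KPCA.C (37.8 to 41.0). KPCA.B, lowest for Ccl2 in this class, stood 1.97-fold over KPCA.A for Csf1 (1.75 to 2.21). It stood 1.14-fold over KPCA.C (1.03 to 1.26), an order that turned under the stricter cell filter (log2 ratio -0.05) and under median-of-ratios scaling (-0.03). At levels under those of fibroblast-like cells, tumor epithelial-like cells still held 41.8%, 52.9% and 67.2% of Csf1 UMIs. These shares were 6.70%, 27.8% and 42.4% after thinning, and 9.11% and 26.1% in KPCA.A and KPCA.B under the stricter cell filter. Fibroblast-like cells held 27.0%, 12.3% and 19.9%, and neutrophil-like cells 14.7% in KPCA.A. Macrophage-like cells held between 4.19% and 7.09% in the tumors, and the whole ascites library had 21 Csf1 UMIs.

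Il34, the other ligand of Csf1r, was found mainly in tumor epithelial-like, mesothelial-like and fibroblast-like cells. In tumor epithelial-like cells it stood at 10.3 CPM in KPCA.A (9.23 to 11.5), 17.7 in KPCA.B (15.3 to 20.3) and 28.9 in KPCA.C (27.5 to 30.2), with no overlap. KPCA.C exceeded KPCA.A 2.79-fold and KPCA.B 1.63-fold. In cluster 2 the log2 ratio of Il34 was -0.60 for KPCA.A over KPCA.C and 0.16 for KPCA.B over KPCA.C, so the latter direction turned there. In KPCA.B, mesothelial-like cells stood at 61.0 CPM (50.5 to 73.0) and fibroblast-like cells at 49.7, above the tumor cells. Tumor epithelial-like cells held 75.7%, 50.9% and 89.5% of Il34 UMIs, and 22.5% and 29.0% of those of KPCA.A and KPCA.B under the stricter cell filter. No Il34 UMI was found in ascites, which allows a share of cells with a UMI of up to 0.103%.

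Csf2, also called GM-CSF, was rare. In KPCA.A and KPCA.C its UMIs lay almost wholly in tumor epithelial-like cells, 97.1% of 139 and 97.5% of 653. In KPCA.B these cells held 3 of 8. Its level in tumor epithelial-like cells was 4.36 CPM in KPCA.A (3.65 to 5.16) and 10.2 in KPCA.C, 2.34-fold apart, with 0.265 in KPCA.B. Under the stricter cell filter the Csf2 share in KPCA.A was 56.3% and the log2 ratio of KPCA.A over KPCA.C was -0.09. KPCA.C exceeded KPCA.B 38.4-fold, with a counting interval of 13.1 to 187. T cell-like cells, another known source, had 10 Csf2 UMIs in KPCA.C, a level of 11.2 CPM (5.38 to 20.6) that overlapped that of the tumor cells. In KPCA.B they had 3 UMIs, at 4.57 CPM (0.942 to 13.4). Ascites had none.

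Among the tumor epithelial-like clusters, cluster 2, led by H19, Miat and Rmst, was the one that all 3 tumors filled, with 542, 204 and 112 cells. Its Ccl2 level was 198 CPM in KPCA.A, 43.5 in KPCA.B and 132 in KPCA.C. KPCA.A exceeded KPCA.B 4.55-fold there (4.07 to 5.09), close to the ratio over the class, but it also stood above KPCA.C, by 0.58 on the log2 scale, which turns the direction found over the whole class. The high Ccl2 of KPCA.C lay in 2 clusters found in that tumor: 462 CPM in 593 cells led by Igfbp3 and Grem1 (455 to 469), and 322 in 277 cells led by the cell cycle genes Hist1h2ap and Anln. The latter had the highest Csf2, at 14.5 CPM. Cluster 16, led by the gastric-type genes Gkn1, Gkn2 and Tff1, was low in Ccl2, at 32.9 CPM in 200 cells of KPCA.A and 12.8 in 78 cells of KPCA.B, while its Csf1, at 20.6 and 46.9 CPM, was near that of cluster 2 (22.8 and 44.4).

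**Figure D4:**
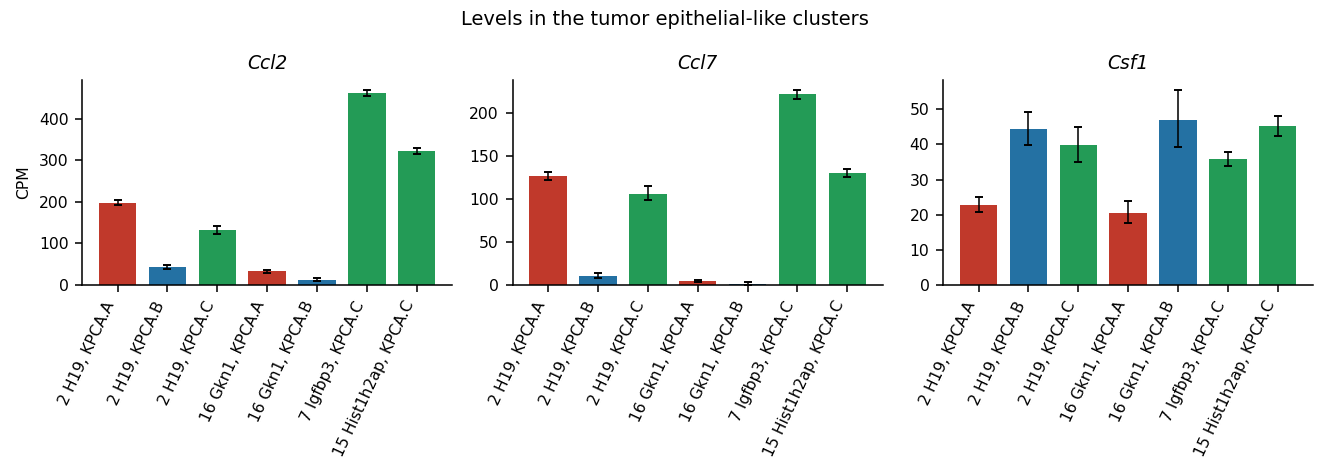
Levels of 3 ligand genes in each tumor epithelial-like cluster and tumor line, in CPM of the cluster's summed UMIs, for Ccl2, Ccl7 and Csf1 (bars from 0, with 95% counting intervals). Cluster 2 is filled by all 3 lines and has Ccl2 at 198, 43.5 and 132 CPM in that order of lines, under the 462 CPM of the Igfbp3 and Grem1 cluster of KPCA.C.

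Counted over tumor epithelial-like cells, 3 of 8 measured members (Ccl2, Ccl7 and Csf2) were past 2-fold higher in KPCA.A against KPCA.B, where 7.07% of all genes measured were, and 2 (Ccr2 and Csf1r) were lower, beside 7.89% of all genes. Both of the latter stood under the level of B cell-like cells in KPCA.B (14.9 CPM for Ccr2, against 4.42 in the tumor cells, and 10.8 for Csf1r, against 5.30). The median depths there were 3231 UMIs in B cell-like and 32946 in tumor epithelial-like cells. The source of these Ccr2 and Csf1r UMIs was not tested. For KPCA.A against KPCA.C, 0 of 9 were higher and 4 lower (Ccl2, Ccl8, Csf2 and Il34), with 9.27% and 8.17% of all genes. For KPCA.B against KPCA.C, 0 of 9 were higher and 4 lower (Ccl2, Ccl7, Ccl8 and Csf2), with 13.4% and 11.2% of all genes. In KPCA.B and KPCA.C, the Ccl8 levels behind these calls did not stand clear of those of B cell-like cells, given above. The members' median log2 ratios were -0.68, -0.87 and -0.71, and those of all genes -0.05, 0.06 and 0.11. The 3 comparisons share libraries, here and in the classes that follow.

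Over monocyte and macrophage-like cells, 4 of 7 measured members (Ccl2, Ccl7, Ccl12 and Csf1) were past 2-fold higher in KPCA.A against KPCA.B and 1 (Ccl8) lower, where 5.79% of all genes were higher and 6.07% lower. For KPCA.B against KPCA.C, 1 of 7 (Ccl8) was higher and 3 (Ccl2, Ccl7 and Csf1) lower, with 5.66% and 6.47% of all genes. For KPCA.A against KPCA.C, 1 of 7 (Ccl8) was higher and 0 lower, with 1.62% and 2.63% of all genes. The members' median log2 ratios were 1.32 for KPCA.A against KPCA.B, -0.88 for KPCA.B against KPCA.C and 0.26 for KPCA.A against KPCA.C, beside -0.03, 0.07 and 0.03 over all genes. The genes that rise during digestion had the order of Ccl2, Ccl7 and Ccl12 here, but not that of Ccl8. Their summed level was 3254 CPM in KPCA.A, 945 in KPCA.B and 2762 in KPCA.C. In tumor epithelial-like cells, where Ccl2 and Ccl7 were highest in KPCA.C, the sums were 1757, 1065 and 1699. Markers of tumor epithelial cells in the macrophage-like class summed to 124 CPM in KPCA.A, 27.8 in KPCA.B and 130 in KPCA.C. The part of either in the ligand levels was not tested.

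**Figure D5:**
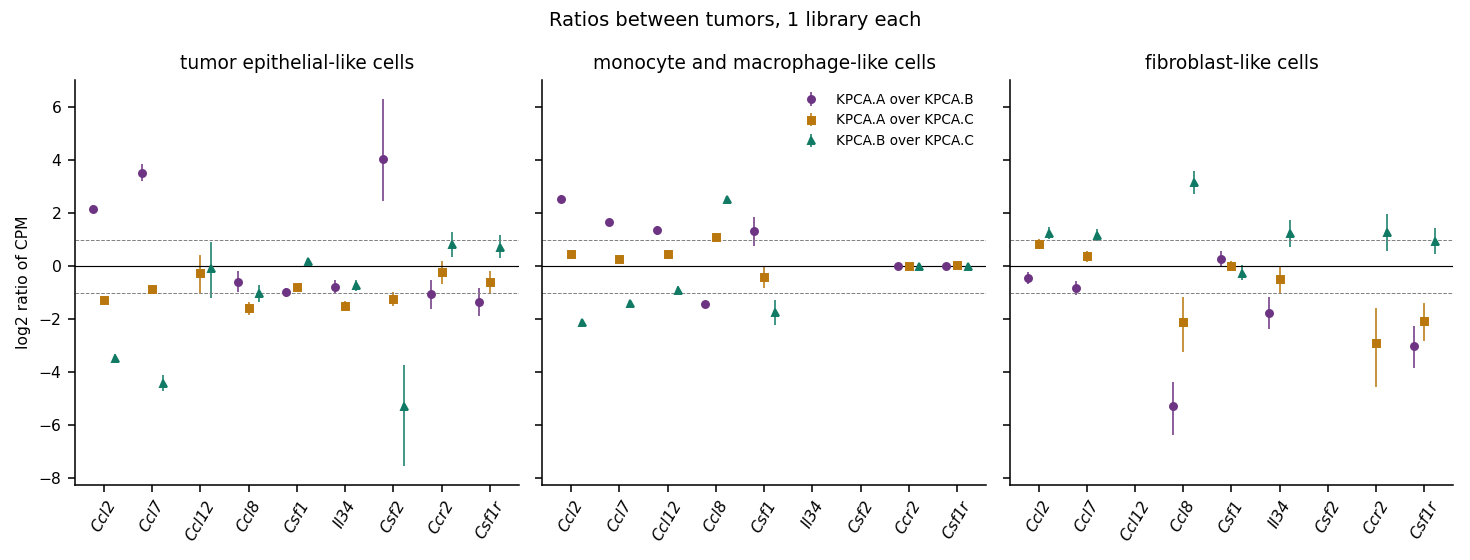
Log2 ratio of CPM for each member between the tumor lines, in tumor epithelial-like, monocyte and macrophage-like and fibroblast-like cells, with 95% counting intervals and 1 library per line. Dashed lines mark 2-fold. For KPCA.B over KPCA.C, Ccl2 is at -3.44 and -2.10 in the first 2 classes and at 1.28 in fibroblast-like cells.

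In fibroblast-like cells, 3 of 6 measured members were past 2-fold lower in KPCA.A against KPCA.B and 0 higher, where 3.95% and 6.73% of all genes were: Ccl8 (38.7-fold), Csf1r (8.07-fold) and Il34 (3.37-fold). For KPCA.A against KPCA.C, 3 of 7 were lower and 0 higher, with 2.50% and 1.21% of all genes. Between KPCA.B and KPCA.C, 5 of 7 were higher in the former and 0 lower, with 4.58% and 7.80% of all genes. For Ccl2 the latter ratio was 2.42 (2.07 to 2.83), and for Ccl8 it was 9.01. Members' median log2 ratios were -1.28, -0.49 and 1.26, against 0.04, 0.00 and -0.02 over all genes. Macrophage markers in the fibroblast-like cells summed to 303 CPM in KPCA.A (11 of 12 above 0), 2947 in KPCA.B and 986 in KPCA.C (12 of 12 in both), so they were highest where Ccl8 and Csf1r were. Their part in the ratios was not tested. For KPCA.B over KPCA.C, the log2 ratio of Ccl8 in this class was 0.06 with the highest doublet scores removed and -1.19 with each library clustered alone, and as a mean over cells that of Ccl2 was 0.60.

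Among 36 other genes of the pathway (ligands, receptors, signalling and lineage genes, and regulators of Ccl2), 28 were measured in macrophage-like cells. For KPCA.A against KPCA.B, 9 of these were past 2-fold higher and 0 lower, beside 5.79% and 6.07% of all genes. Their median log2 ratio was 0.68. Against KPCA.C, 1 was higher in KPCA.B and 9 were lower, beside 5.66% and 6.47% of all genes, with a median of -0.34. Those lowest in KPCA.B included Il1b, the inflammatory cytokine, at 823, 91.0 and 579 CPM, and Il6 at 36.6, 8.29 and 83.8. The chemokine Ccl3, a ligand of Ccr1, stood at 70.2, 12.4 and 69.4 CPM, and Ccl4 at 167, 32.1 and 129. Cebpb, a transcription factor of myeloid cells, stood at 1272, 266 and 1490 CPM, and Nr4a1, a factor required by patrolling monocytes and also an early response gene, at 77.1, 13.1 and 66.8.

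Between KPCA.A and KPCA.C, 2 of the 28 were higher and 2 lower, beside 1.62% and 2.63% of all genes. In tumor epithelial-like cells, 11 of 25, 7 of 28 and 12 of 27 measured genes of the list were past 2-fold in either direction. The comparisons are KPCA.A against KPCA.B, KPCA.A against KPCA.C and KPCA.B against KPCA.C, in that order. Of all genes in these cells, 7.07%, 9.27% and 13.4% were past 2-fold higher in the same comparisons. Another 7.89%, 8.17% and 11.2% were past 2-fold lower. Cebpb was lowest in KPCA.B there too, at 236, 90.2 and 210.0 CPM. Irf8, a factor of monocytes, dendritic cells and B cells, stood at 92.2 CPM in KPCA.B, 7.70-fold over the nearer of the other tumors, where B cell markers in these cells summed to 15.5 CPM against 0.645 and 3.12, and their part was not tested.

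In fibroblast-like cells, Cebpb stood at 485, 151 and 553 CPM, again lowest in KPCA.B. The macrophage-linked genes Ccl6 (10.9, 313 and 110.4 CPM), Ccl9 (4.82, 73.5 and 29.4) and Tyrobp (8.35, 83.9 and 31.5) were lowest in KPCA.A, the order of the macrophage markers given above for this class. Of the list, 8 of 16, 8 of 22 and 10 of 22 measured genes were past 2-fold in the 3 comparisons, beside 10.7%, 3.71% and 12.4% of all genes.

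The ascites, 1 library used in all 3 comparisons, was set against each tumor over the monocyte and macrophage-like class. Against KPCA.A, 7 of 7 measured members were past 2-fold lower in ascites and 0 higher, where 41.8% and 9.51% of all genes were. Against KPCA.B, 4 of 7 (Ccl8, Ccl12, Ccr2 and Csf1r) were lower and 0 higher, with 43.8% and 8.16% of all genes. Against KPCA.C, 7 of 7 were lower and 0 higher, with 41.9% and 7.57% of all genes. The members' median log2 ratios were -2.20, -1.51 and -2.39 in that order, and those of all genes -0.77, -0.81 and -0.78, so the median gene was lower in ascites too. Relative to KPCA.B, Ccl2 was 1.28-fold higher in ascites (1.12 to 1.47). These ratios for Ccl2, Ccl7 and Ccl12 turn on which cells are counted in the class: with clusters 4, 5 and 14 counted by their best marker score, ascites was higher than KPCA.A by 0.68 for Ccl2 and 0.51 for Ccl7 on the log2 scale. Ccr2, Ccl8 and Csf1r stayed lower in ascites than in each tumor in every setting run, including that one. Their size moved, though. Against KPCA.A, the log2 ratios of -5.65 for Ccr2, -4.10 for Ccl8 and -1.90 for Csf1r came as near to equal as -2.74, -2.02 and -1.14.

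Cluster 4 of ascites held the highest level of Ccl2 of any cluster of at least 50 cells described here, 2157 CPM (2086 to 2229) over 748 cells. Ccl7 stood at 1496 CPM (1437 to 1556), Ccl12 at 576 (540 to 613), Ccl8 at 178 (158 to 200) and Ccr2 at 430 (399 to 463). These were 28.1-fold (25.3 to 31.3), 19.4-fold, 23.2-fold, 12.1-fold and 27.4-fold (21.7 to 35.1) the levels of the named ascites macrophage-like cells. Csf1r, by contrast, was at 143 CPM, a ratio of 0.959 (0.825 to 1.11). Cluster 4 held 3 Csf1 UMIs and none of Csf2 or Il34.

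Cells of cluster 4 had a median of 2073.5 UMIs, near the 2100.5 of the named ascites macrophage-like cells. All 12 macrophage markers were above 0 there and summed to 14659 CPM, against 7932 in the named cells. Neutrophil markers, 7 of 8 above 0 with G0s2 at 0, summed to 4811 CPM against 1592. Macrophage was the cluster's best class by marker score. It was left unnamed because its 10 leading genes held 2 neutrophil markers and 0 of the listed monocyte or macrophage markers. Those 10 genes also included Cd163, a gene of tissue macrophages that was not on the marker list. The named ascites macrophage-like clusters likewise held 0 of the listed monocyte or macrophage markers among their 10. Their macrophage scores were 0.546 to 0.580, against 0.745 in cluster 4. At 1000 UMIs per cell, 53.9% of its cells had a Ccl2 UMI, 37.8% a Ccl7 UMI, 23.9% a Ccl12 UMI and 30.3% a Ccr2 UMI. Ligand and receptor were found in the same cells: of 577 thinned cells, 311 had Ccl2, and 38.3% of these also had Ccr2, against 21.1% of those without Ccl2. Ccl7 was in 58.8% of the cells with Ccl2 (53.1 to 64.4) against 13.2% of those without, and Ccl12 in 37.3% against 8.27%. For Ccl8 the shares were 3.86% and 3.01%.

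The named ascites clusters held much less of the ligands. The largest, led by Wfdc21 and Prg4 with 749 cells, stood at 55.3 CPM of Ccl2 and 12.4 of Ccr2 beside 150.2 of Csf1r. The next, with 723 cells, stood at 211 CPM of Ccl2, 162 of Ccl7 and 36.7 of Ccr2. The class as a whole had 0.105 Ccr2 UMIs per Csf1r UMI and cluster 4 had 3.01.

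Over the 25 sums of 1 class in 1 library with at least 50 cells, which share libraries, depth and classes, the likeness of each member's pattern to other genes was described by Pearson's r of log2(CPM + 5). Ccl2 and Ccl7 were the most alike pair among the members given here (r = 0.949), and Ccl12 followed Csf1r (0.928). Ccl2 had little likeness to Ccl8 (0.291) or to its receptor Ccr2 (-0.04). The non-members most alike to Ccl2 were Sh3pxd2b (0.919), Fn1 (0.906) and Commd1 (0.898), and Fn1, which encodes fibronectin, also led for Ccl7 (0.906).

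For Ccl8 the most alike genes were Rnase2a (0.941), Fcrls (0.939) and Folr2 (0.924). For Ccl12 they were Msr1 (0.959), a scavenger receptor, AU022793 (0.959) and C3ar1 (0.955), and for Csf1r they were C3ar1 (0.967), Cd68 (0.959) and Psap (0.958). Among the genes most like Ccr2 were Dok2 (0.967) and Ms4a6c (0.923). Csf1 was most like Rab15 (0.863), Ddit3 (0.861) and Hdc (0.837), Csf2 most like Areg (0.867), Gldc (0.849) and Acsbg1 (0.845), and Il34 most like Sema3b (0.975), Gxylt2 (0.963) and Fbln1 (0.955).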

How the data were processed

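The values analysed are raw counts of UMIs for each gene and barcode, as deposited by the authors. Per the file headers, Cell Ranger 4.0.0 made the tumor matrices and Cell Ranger 3.0.2 the ascites matrix, whereas the submitters' processing notes give 3.1.0 (build mm10). Gene and barcode tables, also deposited, hold other values: identifiers, symbols and barcodes. Tumors were digested with collagenase and libraries made with a 10x 3' v2 kit, per the labels' protocols. The shared genes cover 99.6%, 99.6%, 99.5% and 99.9% of the 4 libraries' UMIs, with ascites last.

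Cells were kept at 300 or more genes, 500 or more UMIs and no more than 15% of UMIs from mitochondrial genes. Scrublet, set to 0.8% doublets per 1000 barcodes, called 22 of 11253 cells (0.196%), so its threshold did not work and doublets remain. Clustering used log counts (10000 per cell), 2000 variable genes without the members, 30 components, 15 neighbours and Leiden resolution 1 with seed 1, and mixed clusters were split once more. The 2 rounds gave 44 clusters in 14 classes, with 5 clusters (1859 cells) unnamed. A class needed at least 3 detected markers and a mean position of 0.4 on the marker ranges. Tumor clusters needed 500 CPM of Krt8 and Krt18 and 200 CPM of Cdkn2a, limits set after seeing the data (lowest tumor cluster 355 CPM of Cdkn2a, highest other 277). The 9 digestion-linked genes were also chosen after seeing the data. UMIs were summed per class and library over classes of at least 50 cells. Shares of cells were also taken after thinning to 1000 UMIs. A count of 0 allows up to 3 counts.

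All 9 members were named. Other pathway genes were named where 1 tumor stood apart from both others past 2-fold in the same direction at 50 CPM or more, at most 6 per class, and likeness used genes with at least 200 UMIs and a pseudocount of 5 CPM. Some genes that this rule names are not reported here. The members and lists were chosen with earlier results of these data known. Ratio code was tested on simulated data. Alternatives covered cell filters, doublet scores, clustering, scaling, summing and thinning. Tools were scanpy 1.11.5 with anndata 0.12.19, leidenalg 0.10.2 and igraph 0.11.9, scipy 1.17.1, scikit-learn 1.9.0, numpy 2.4.6, pandas 2.3.3 and matplotlib 3.10.9 in python 3.11.15.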

Additional observations from a re-analysis of the deposited data

Results flagged for a closer look

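Several members differed between tumor lines in opposite directions in different cell classes. There was 1 library per line, so the difference between classes was not tested. For KPCA.A against KPCA.C, the log2 ratio of Ccl8 was -1.59 in tumor epithelial-like cells, 1.10 in the monocyte and macrophage-like class and -2.10 in the fibroblast-like class. For KPCA.B against KPCA.C, Ccl2 was -3.44 in tumor epithelial-like cells, -2.10 in the monocyte and macrophage-like class and 1.28 in the fibroblast-like class. Ccl7 followed it, at -4.41, -1.40 and 1.19 in the same order of classes. Ccl8 was -1.01 in tumor epithelial-like cells, 2.53 in the monocyte and macrophage-like class and 3.17 in the fibroblast-like class. The fibroblast-like values of KPCA.B rest on 51 cells, in which macrophage markers summed to 2947 CPM against 986 in KPCA.C and 303 in KPCA.A, and the part of these cells in the ratios was not tested. The Ccl8 values in tumor epithelial-like cells rest on levels of 5.03, 7.51 and 15.1 CPM in the 3 tumors. In KPCA.B and KPCA.C these did not stand clear of the B cell-like levels of 10.3 and 12.4 CPM. The latter rests on 4 UMIs in 69 cells (3.39 to 31.8), and B cell-like cells had far fewer UMIs each. The source of the Ccl8 UMIs was not tested.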

How the results depend on the processing

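Each result was recomputed under 12 other settings listed at the outset and 3 chosen after seeing the data (clusters 4, 5 and 14 counted in a class, cluster 2 only, and the macrophage clusters shared by KPCA.A and KPCA.C only). Of 604 recomputed log2 ratios of the 52 called, 541 stayed past 2-fold in the same direction, 46 kept the direction under 2-fold and 17 reversed. Of 146 recomputed member counts, 120 were within 1.5 times the value reported. The shares of UMIs held by a class were recomputed too (346 values for 32 shares), and those given in the text that moved by over 1.5 times stand beside them.

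In tumor epithelial-like cells, the count for KPCA.A against KPCA.B was 3 under the stricter cell filter, 3 without the cells with most markers of other classes and 2 after thinning, and Ccr2 reversed to 0.21 with the highest doublet scores removed. For KPCA.A against KPCA.C it was 2 at Leiden resolution 2, with libraries clustered alone and after thinning, and 1 in cluster 2, where Ccl2 reversed to 0.58. For KPCA.B against KPCA.C it was 2 after thinning, and Ccl8 reversed to 0.51 in cluster 2. In macrophage-like cells, the count for KPCA.A against KPCA.C was 0 under the looser filter, with doublet scores removed, at Leiden resolution 0.5 and 2, with libraries alone, as a mean over cells and after thinning.

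In fibroblast-like cells, the count was 1 for KPCA.A against KPCA.B with doublet scores removed. For KPCA.A against KPCA.C it was 1 with doublet scores removed, 0 without the cells with most markers of other classes and 1 after thinning. For KPCA.B against KPCA.C it was 3 with doublet scores removed and 1 as a mean over cells, and with libraries alone Ccl8 reversed to -1.19 and Ccr2 to -2.64. Some settings left under 50 such KPCA.B cells and gave no value.

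For ascites, the count was 4 against KPCA.A and 7 against KPCA.B, both with libraries alone and with the unnamed clusters counted, and 4 against KPCA.C at Leiden resolution 2. In the same 2 settings, Ccl2 reversed to 0.77 and 0.68 and Ccl7 to 0.62 and 0.51 against KPCA.A, Ccl12 to 1.26 and 1.19 against KPCA.B, and Ccl2 to 1.30 and 1.20, Ccl7 to 0.90 and 0.83 and Ccl12 to 0.30 and 0.29 against KPCA.C. The cause was not tested. With 1 library per group no replicate could be left out. No paired analysis was possible because each group had 1 library. At the ascites depth, Csf1 (21 UMIs), Csf2 and Il34 are near or under the limit of detection.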
